A study of Homo sapiens with 24 samples.

Results

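The epithelial sodium channel, the serum- and glucocorticoid-regulated kinases and their closest partners were followed as a group of 10 genes in human U2OS osteosarcoma cells given dexamethasone, a synthetic glucocorticoid. The members were the channel subunits SCNN1A, SCNN1B, SCNN1G and SCNN1D, the kinases SGK1, SGK2 and SGK3, the ubiquitin ligase NEDD4L, the kinase WNK1 and the sodium pump subunit ATP1B1. They were 10 of the 61533 genes in the exon count table, and each matched 1 row by its gene symbol. The set was chosen by measured values of these same libraries as well as by function, since the rise of SCNN1A in the wt line at 3 h and the normalised counts of every library were known when it was drawn up. The changes over time and the differences between lines are therefore given as a description. The p-values of the changes over time are not printed. Those of the differences between lines, and the word called for either, only label values and test nothing about the choice of members.

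In sodium-absorbing epithelia such as the distal nephron, lung and colon, the alpha subunit encoded by SCNN1A assembles with the beta and gamma subunits of SCNN1B and SCNN1G into a channel that lets sodium in at the apical membrane, and the Na,K-ATPase, of which ATP1B1 is a beta subunit, pumps it out at the basolateral side. NEDD4L attaches ubiquitin to the channel and has it removed from the membrane. SGK1 phosphorylates NEDD4L and thereby keeps the channel at the surface, and WNK1 acts on sodium and chloride cotransport and on SGK1. Corticosteroids are known to raise SCNN1A and SGK1 transcription through the mineralocorticoid and glucocorticoid receptors.

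Newly made RNA was labelled with 4-thiouridine (4sU) for the last hour before harvest, captured and sequenced in 3 stable U2OS lines. Each line carried a different glucocorticoid receptor (GR, gene NR3C1) with a C-terminal HaloTag. The wt line carried the unmutated receptor, the SoF line carried K492A, a separation-of-function change made to weaken RNA binding, and the Ctrl line carried R470A, a control for weaker DNA binding. The authors reported that K492A also lowered DNA affinity in vitro, though less than RNA affinity. R470A lowered DNA affinity somewhat more than K492A did and left RNA affinity as in wt. Neither SoF against wt nor SoF against Ctrl therefore differs in RNA affinity alone. Dexamethasone was given at 100 nM and cells were harvested after 1, 2 or 3 h, and the 0 h cells received 0.01% ethanol, for a duration that is not stated. There were 2 libraries for each of the 12 combinations of line and time, 24 in all. Each construct was integrated with PiggyBac under a CMV promoter, selected with puromycin and sorted by HaloTag dye into intensity fractions, of which those used for sequencing were picked so that nuclear GR signal was alike across constructs, so construct and sorted fraction cannot be told apart, and all 3 lines also kept the endogenous receptor gene. Nothing states that the 2 libraries of a group came from separate cultures, so the p-values measure only the spread between these samples.

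The libraries held 8106036 to 15820806 counted reads, and 3 reads corresponded to 0.202 to 0.353 CPM, the counts per library after scaling to a common library size. NR3C1 reads, from the introduced and the endogenous gene together, averaged 688 CPM in wt, 2630 CPM in SoF and 3317 CPM in Ctrl at 0 h. Of the 9 osteosarcoma or mesenchymal markers, 6 were read at 8.07 CPM or more in every library, with VIM between 490.2 and 913 CPM and COL1A1 between 249.5 and 1008 CPM, while SP7, TWIST1 and COL1A2 stayed at or below 0.602 CPM. Of the 9 epithelial markers, KRT8 and KRT18 were read at 110.9 CPM or more in every library, EPCAM stayed at or below 3.60 CPM, CDH1 at or below 8.09 CPM, CLDN4 was read at 3.20 to 24.2 CPM, and KRT19, GRHL2, ESRP1 and ESRP2 stayed at or below 0.720 CPM. The summed level of the epithelial markers lay between 291 and 641 CPM over the 12 groups. Thus 4 of the 9 epithelial markers were at or near 0 and the other 5 were read in every library.

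RefSeq lists 3 starts for SGK1 on the minus strand of chromosome 6 (GRCh38.p14), and 11 promoter windows of 5 of the 10 members were searched. SGK3 was left out of this search, so the counts of member windows do not cover it. The outermost and the innermost SGK1 starts are shown because SGK1 was, beside SCNN1A, the member that rose with dexamethasone, and because counts per gene do not tell these starts apart. The 250 bases before each start are written 5′ to 3′ on the strand of the gene, with the motif TATAA on either strand in capitals.

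SGK1 outermost start, chr6:134318113-134318362: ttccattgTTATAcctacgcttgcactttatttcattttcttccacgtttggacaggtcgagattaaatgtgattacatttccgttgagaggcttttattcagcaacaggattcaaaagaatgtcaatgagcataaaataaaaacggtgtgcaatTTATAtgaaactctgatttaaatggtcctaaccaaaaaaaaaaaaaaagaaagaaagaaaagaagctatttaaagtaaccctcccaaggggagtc

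SGK1 innermost start, chr6:134174867-134175116: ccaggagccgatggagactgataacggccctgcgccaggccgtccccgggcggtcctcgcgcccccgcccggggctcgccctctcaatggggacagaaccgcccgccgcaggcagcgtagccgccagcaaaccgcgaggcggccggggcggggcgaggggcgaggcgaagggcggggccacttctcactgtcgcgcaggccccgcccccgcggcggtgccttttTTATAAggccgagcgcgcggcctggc

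The innermost window, with 76.0% G and C, held overlapping copies of the motif on both strands that began 26 and 25 bases before the start. The outermost window, with 33.6% G and C, held it at 242 and 95 bases. The TATAA motif was present in 18.9% of the 35116 promoter windows in the table. The receptor half-site AGAACA, searched on both strands and so also as TGTTCT, was in neither SGK1 window, in 1 of the 11 member windows (the outermost NEDD4L start) and in 12.4% of all windows. These are letter matches in short windows and say nothing of whether the receptor binds there or elsewhere.

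The members spanned a wide range of levels once scaled to exon length. Over the 24 libraries the median was 39.02 CPM per kb for SGK1, 20.3 for ATP1B1, 15.7 for WNK1, 5.53 for NEDD4L, 3.12 for SCNN1A, 1.35 for SGK3, 0.207 for SCNN1D and 0.163 for SGK2, all in CPM per kb, and 0 for SCNN1B and SCNN1G. SGK1 lay above all other members in every library, with ATP1B1 closest to it in the first 0 h wt library. The ranges of ATP1B1 and WNK1 overlapped, as did those of NEDD4L and SCNN1A and those of SCNN1D and SGK2. Over all libraries the ranges of SGK1 and ATP1B1 overlapped too, and that of SCNN1A also took in those of SGK3, SCNN1D and SGK2. As a ratio of highest to lowest, SCNN1A covered the widest span of the members read in every library, from 0.0393 to 7.65 CPM per kb. The low-count filter kept 8 members, and SCNN1B and SCNN1G did not pass it.

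**Figure D1:**
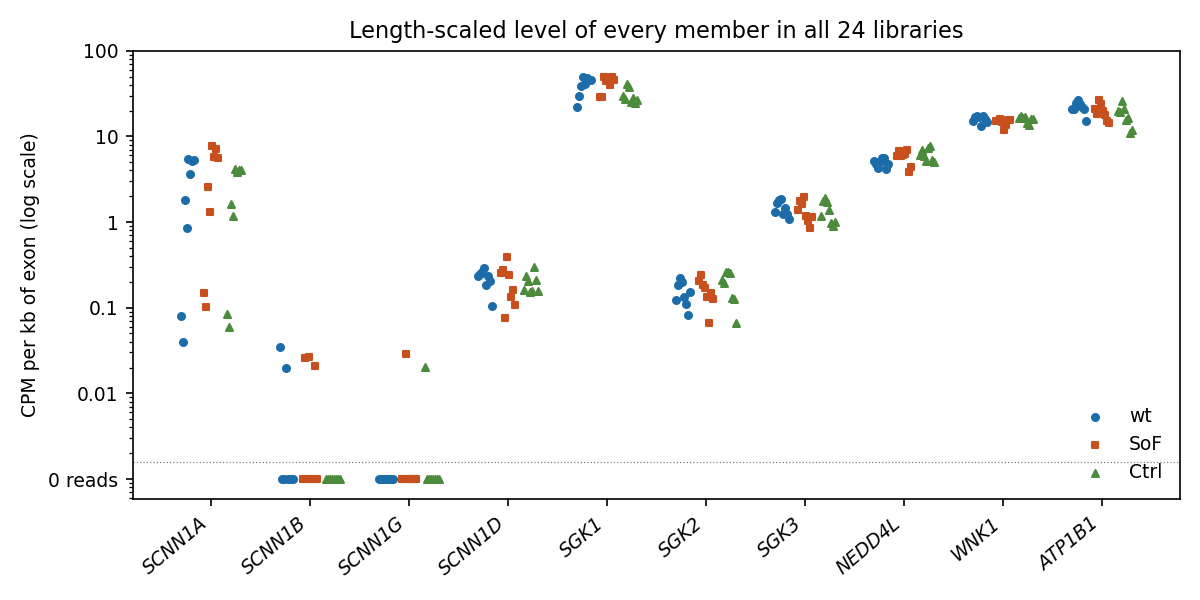
CPM per kb of exon on a log scale for the 10 members, with 1 point for each of the 24 libraries, coloured by line and ordered from left to right by time within a line; libraries with 0 reads are drawn below the dotted line. SGK1 lies highest at 21.9 to 49.6 CPM per kb, SCNN1A climbs from 0.0393 to 7.65, and SCNN1B and SCNN1G are at 0 reads in most libraries.

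SCNN1A, the pore-forming alpha subunit, was nearly silent at 0 h and was transcribed in all 3 lines within the first hour of dexamethasone. The gene lies on chr12:6346843-6377730 (hg38, minus strand). In the wt line it was read at 0.472 and 0.231 CPM at 0 h, 10.6 and 5.02 CPM at 1 h, 32.04 and 21.4 CPM at 2 h, and 30.7 and 31.2 CPM at 3 h. In the SoF line the values were 0.884 and 0.601 CPM at 0 h, 15.2 and 7.76 CPM at 1 h, 45.0 and 33.4 CPM at 2 h, and 41.6 and 32.5 CPM at 3 h. In the Ctrl line they were 0.500 and 0.353 CPM at 0 h, 9.58 and 6.88 CPM at 1 h, 24.4 and 22.5 CPM at 2 h, and 23.6 and 24.1 CPM at 3 h. Every dexamethasone library lay above every 0 h library of its line, both 2 h libraries lay above both 1 h libraries, and the 2 h and 3 h libraries overlapped in each line.

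The log2 difference of SCNN1A from 0 h was 4.39 ± 0.49 (SE, n = 2 against 2 here and below) at 1 h, 6.18 ± 0.45 at 2 h and 6.39 ± 0.44 at 3 h in wt. In SoF it was 3.90 ± 0.43, 5.67 ± 0.41 and 5.59 ± 0.41, and in Ctrl 4.18 ± 0.50, 5.69 ± 0.46 and 5.72 ± 0.46. The gene was called higher in all 9 contrasts, where called means a p below 0.05 from the quasi-likelihood test of edgeR after Benjamini-Hochberg adjustment over the 23651 genes tested. The rise of SCNN1A was part of how the members were chosen, so nothing is read from its calls. Without the first 0 h library the wt values became 4.98, 6.76 and 6.99, and without the first 1 h library the 1 h value became 3.77. The calls were kept without any single library in all 3 lines. The size of the fold rests on few 0 h reads, 10 in wt, 18 in SoF and 10 in Ctrl over both libraries. With these reads the ratio of 3 h to 0 h CPM was 86.1 in wt (95% exact interval 46.6 to 180), 48.6 in SoF (30.6 to 82.4) and 53.7 in Ctrl (29.0 to 113), and the intervals cover counting error only.

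Between 1 h and 3 h, a comparison that does not use the 0 h libraries, SCNN1A was higher by 2.00 ± 0.30 in wt, 1.69 ± 0.29 in SoF and 1.53 ± 0.30 in Ctrl on the log2 scale and was called in each, also without any single library. The wt value ranged from 1.56 without the second 1 h library to 2.63 without the first, the SoF value from 1.29 to 2.27 without the same libraries of its line, and the Ctrl value from 1.32 to 1.80. The 2 h minus 1 h differences were 1.79, 1.77 and 1.51, and the 3 h minus 2 h differences 0.21 ± 0.27, −0.08 ± 0.27 and 0.03 ± 0.28, so most of the later increase fell between 1 h and 2 h. The gene body of SCNN1A overlaps LTBR, the lymphotoxin beta receptor gene on the opposite strand, over 2686 bases, of which 422 are exonic in both. LTBR was also higher at 3 h than at 0 h, by log2 differences of 1.33 ± 0.22 (wt), 1.34 ± 0.22 (SoF) and 1.201 ± 0.22 (Ctrl), and was called in each. That the counting separated the strands is known only from the title of the table, and the part of LTBR reads in the SCNN1A values was not tested.

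**Figure D2:**
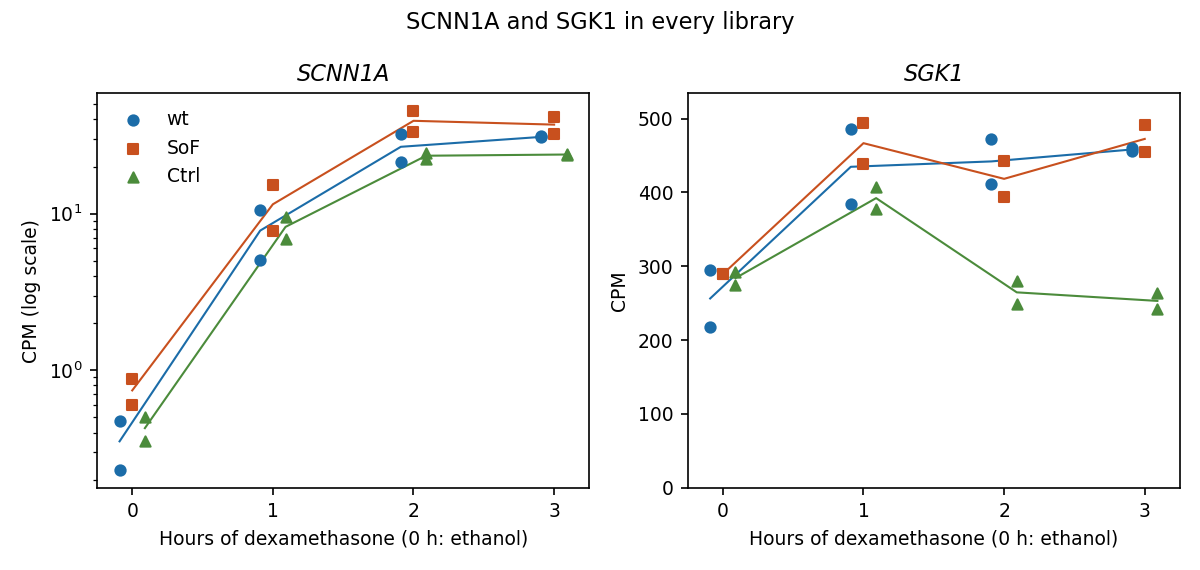
CPM of SCNN1A (left, log scale) and SGK1 (right, linear scale) against hours of dexamethasone, with 0 h in ethanol, 1 point for each library and lines through the means of the 2 libraries of a group. SCNN1A rises from below 1 CPM to above 20 CPM in all 3 lines, whereas SGK1 rises in all 3 at 1 h and lies back between 242 and 280.2 CPM at 2 and 3 h in Ctrl.

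The partner subunits were at or near 0 reads at all times. SCNN1B, the beta subunit, had 6 reads over 5 of the 24 libraries, and SCNN1G, the gamma subunit, had 2 reads over 2 libraries. In the Ctrl line SCNN1B had no read in 8 libraries, and in the wt line SCNN1G had none in 8. The level of 3 reads, 0.202 to 0.353 CPM, was taken as the limit for a count of 0 in a single library. Expression of either subunit below it could be missed in 1 library. SCNN1D, the delta subunit, which can stand in for alpha, was read 3 to 17 times per library, at 0.302 to 1.55 CPM. In SoF its 1 h libraries read 0.302 and 1.55 CPM, a spread that covers all its other values. Its 3 h minus 0 h log2 differences were −0.65 ± 0.54 in wt, −0.96 ± 0.57 in SoF and −0.05 ± 0.59 in Ctrl, and it was called in no contrast.

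SGK1, the kinase that protects the channel from NEDD4L, was already abundant at 0 h and was higher at every dexamethasone time in the wt and SoF lines, but in Ctrl only at 1 h. The gene lies on chr6:134169248-134318112 (hg38, minus strand). In wt it was read at 218 and 295 CPM at 0 h, 384 and 486 CPM at 1 h, 411 and 473 CPM at 2 h, and 459.8 and 456 CPM at 3 h. In SoF the values were 289.9 and 289 CPM at 0 h, 494 and 439 CPM at 1 h, 443 and 394 CPM at 2 h, and 491 and 454 CPM at 3 h. In Ctrl they were 293 and 275 CPM at 0 h, 407 and 377 CPM at 1 h, 249 and 280.2 CPM at 2 h, and 242 and 264 CPM at 3 h. In wt and SoF no dexamethasone library overlapped the 0 h libraries of its line. In Ctrl both 1 h libraries lay above 0 h, the 2 h libraries overlapped it and both 3 h libraries lay below it.

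The log2 difference of SGK1 from 0 h in wt was 0.76 ± 0.15 at 1 h, 0.79 ± 0.15 at 2 h and 0.84 ± 0.15 at 3 h, and it was called higher at all 3 times. In SoF it was 0.69 ± 0.15, 0.53 ± 0.15 and 0.71 ± 0.15, called at 2 h and 3 h. In Ctrl it was 0.47 ± 0.15, −0.10 ± 0.15 and −0.17 ± 0.15, called at no time. The log2 difference of 3 h from 1 h was 0.08 ± 0.15 in wt and 0.02 ± 0.15 in SoF and was not called, and −0.63 ± 0.15 in Ctrl, where SGK1 was called lower. The 3 h calls in wt and SoF held whichever single library was left out. The wt calls were lost without the first 0 h library, at 0.54 for 1 h and 0.55 for 2 h, without the second 1 h library, at 0.58, with wt fitted alone, at 0.76 for 1 h, and without the second 2 h library, at 0.66. The SoF call at 2 h was lost without any of its 4 libraries, at 0.45 to 0.62, and with RLE scaling, at 0.51, and the SoF value at 1 h was called without a low-count filter and with DESeq2, at 0.63 and 0.66. The Ctrl fall from 1 h to 3 h was lost without the first 1 h library, at −0.57, or the first 3 h library, at −0.56.

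SGK2 and SGK3 were called higher at no time. SGK3, a kinase of endosomes, was read at 7.48 and 9.46 CPM at 0 h in wt, 10.4 and 10.7 CPM at 1 h, 6.98 and 8.24 CPM at 2 h, and 7.15 and 6.22 CPM at 3 h. Its 3 h libraries lay below its 1 h libraries in each line, with log2 differences of −0.66 ± 0.23 (wt), −0.85 ± 0.24 (SoF) and −0.93 ± 0.24 (Ctrl), called lower in SoF and Ctrl. The SoF call was lost without the second 1 h library, at −0.71, or the first 3 h library, at −0.63. The Ctrl call was lost without the first 1 h library, at −0.85, and without either 3 h library, at −0.84 and −1.02. The 3 h minus 0 h differences, −0.34 ± 0.23, −0.65 ± 0.24 and −0.60 ± 0.24, were not called. SGK3 shares 2503 exonic bases with the same-strand readthrough gene C8orf44-SGK3, so its count is uncertain. SGK2, an isoform best known from liver, pancreas and brain, had 4 to 16 reads in a library. It was called lower at 3 h than at 1 h in Ctrl, by −1.42 ± 0.48 on the log2 scale, from 1.43 and 1.42 CPM to 0.679 and 0.360 CPM. That call was lost without any of the 4 libraries, at −1.05 to −1.94, with no low-count filter, with Ctrl fitted alone and with DESeq2.

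NEDD4L, the ligase that retrieves the channel, was called lower at 3 h than at 0 h in the SoF line. There it was read at 199.6 and 230.1 CPM at 0 h, 202 and 207 CPM at 1 h, 211 and 234 CPM at 2 h, and 131 and 150.3 CPM at 3 h, with a 3 h minus 0 h log2 difference of −0.61 ± 0.14 that was called. In wt the gene was read at 176 and 162 CPM at 0 h, 145 and 172 CPM at 1 h, 189 and 189 CPM at 2 h, and 143 and 164 CPM at 3 h. In Ctrl it was read at 205 and 236 CPM at 0 h, 203 and 176 CPM at 1 h, 252 and 262 CPM at 2 h, and 182 and 171 CPM at 3 h. The 3 h minus 0 h log2 differences of −0.14 ± 0.14 in wt and −0.32 ± 0.14 in Ctrl were not called. In Ctrl, as in SoF, both 3 h libraries nevertheless lay below both 0 h libraries. In each line both 2 h libraries lay above all 1 h and 3 h libraries. The SoF call was lost without the second 0 h library, at −0.50, or the first 3 h library, at −0.52. In SoF the 3 h libraries were also called lower than the 1 h libraries, by −0.54 ± 0.14, a call lost without the first 3 h library, at −0.43.

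ATP1B1, the beta subunit that carries the sodium pump to the membrane, was highest at 1 h and lowest at 3 h in every line. In Ctrl it was read at 242 and 238 CPM at 0 h, 315 and 257 CPM at 1 h, 190.2 and 199 CPM at 2 h, and 136 and 144 CPM at 3 h. In SoF it was read at 257 and 224 CPM at 0 h, 331 and 297 CPM at 1 h, 245 and 217 CPM at 2 h, and 187 and 177 CPM at 3 h. In wt it was read at 255 and 255 CPM at 0 h, 299.5 and 329 CPM at 1 h, 296 and 271 CPM at 2 h, and 254 and 187 CPM at 3 h. The 3 h libraries lay below the 0 h and the 1 h libraries in each line, although in wt the first 3 h library was within 1 CPM of both 0 h libraries. From 1 h to 3 h the log2 difference stood at −0.51 ± 0.15 (wt), −0.79 ± 0.15 (SoF) and −1.03 ± 0.15 (Ctrl), and ATP1B1 was called lower in each. The wt call was lost without the second 3 h library, at −0.30, without either 1 h library, at −0.57 and −0.43, and with wt fitted alone, at −0.52. Against 0 h, ATP1B1 was called lower at 3 h in Ctrl, by −0.78 ± 0.15, and not in SoF, at −0.40 ± 0.15, or wt, at −0.21 ± 0.15. The SoF value was called with RLE scaling, with DESeq2 and with a replicate block, at −0.43, −0.43 and −0.40. The gene overlaps NME7 on the opposite strand, with 287 exonic bases in common, and NME7 was called lower at 3 h than at 1 h in SoF, by −0.73 ± 0.26. Its part in the ATP1B1 values was not tested.

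WNK1, the kinase upstream of sodium and chloride cotransport, was read at 205 to 296.5 CPM in the 24 libraries and was called in none of the 12 contrasts over time. Its log2 differences from 0 h ranged from −0.27 in Ctrl at 2 h to 0.08 in wt at 1 h.

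**Figure D3:**
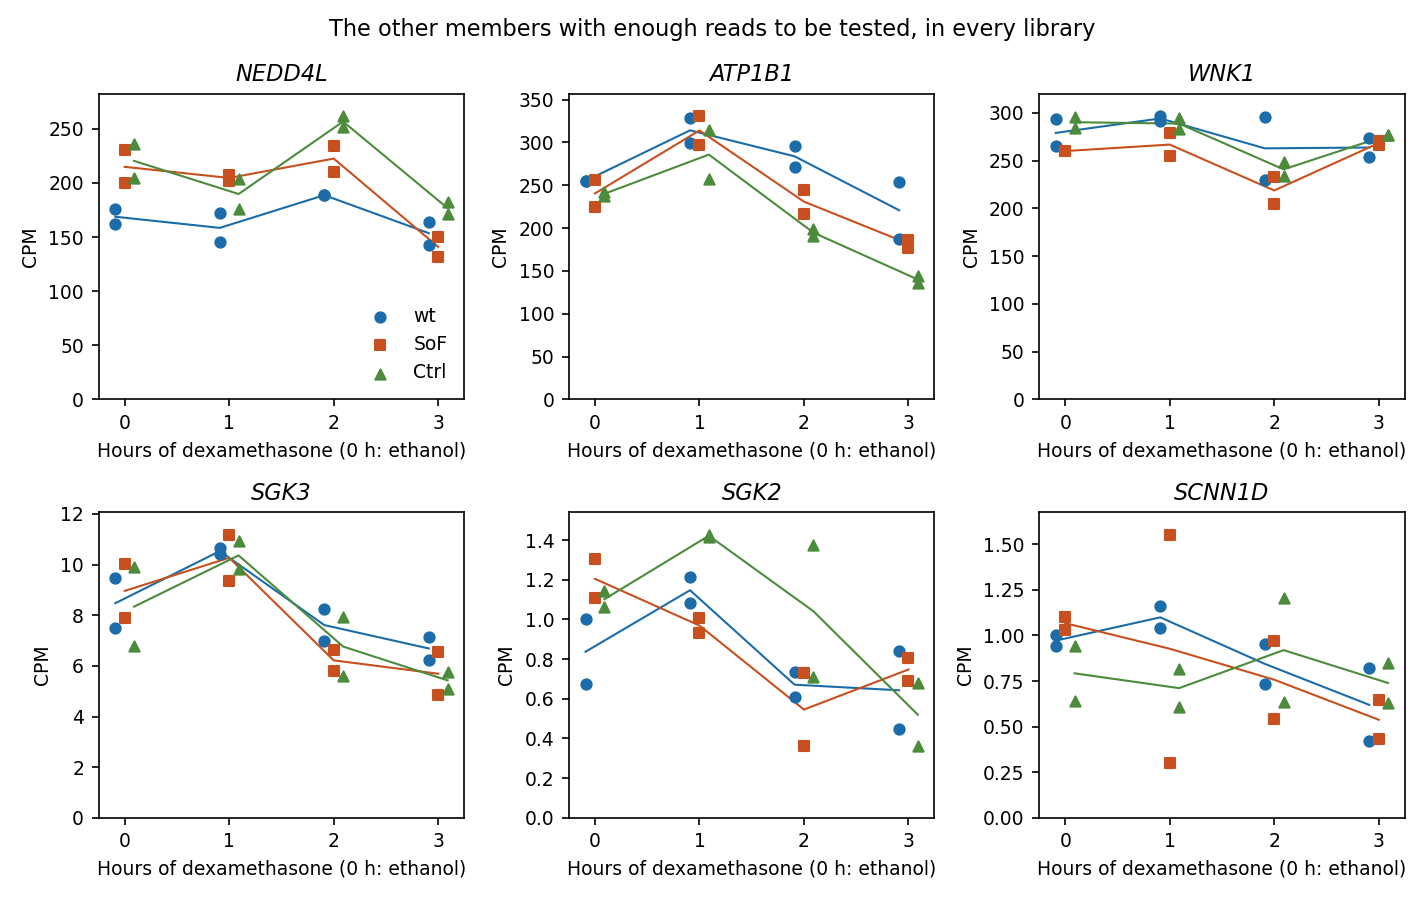
CPM of NEDD4L, ATP1B1, WNK1, SGK3, SGK2 and SCNN1D against hours of dexamethasone, with 0 h in ethanol, 1 point for each library, lines through the means of the 2 libraries of a group and axes that start at 0. ATP1B1 is highest at 1 h and lowest at 3 h in each line, NEDD4L is highest at 2 h, and WNK1 stays between 205 and 296.5 CPM.

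Counted over the 8 tested members, 2 were called at each time in wt. In SoF 1, 2 and 3 were called at 1, 2 and 3 h, and in Ctrl 1, 1 and 2. Of all tested genes, 0.156%, 4.60% and 10.7% were called in wt at the same times. The shares were 0.165%, 5.68% and 19.3% in SoF and 0.0465%, 7.95% and 14.2% in Ctrl. For 3 h against 1 h, 2 members were called in wt, 4 in SoF and 5 in Ctrl, beside 16.0%, 32.6% and 16.9% of all tested genes. Since the members were selected with these values known, nothing is read from the comparison of the shares. The comparisons with 0 h of a line share their 0 h libraries. In bulk RNA of this kind, fewer cells that transcribe a gene and less new RNA per cell cannot be told apart.

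The response was compared between lines by subtracting the 3 h minus 0 h log2 difference of one line from that of another. The members were chosen with these counts known, so the intervals and p-values of these differences are a description. No member was called, while 0.0127% of all tested genes were called for SoF minus Ctrl, 0% for SoF minus wt and 0% for Ctrl minus wt. At an unadjusted p below 0.05, edgeR found 671, 558 and 845 genes in these contrasts, and DESeq2 called 9, 0 and 1 after adjustment. SGK1 showed the clearest difference between lines among the members. SoF exceeded Ctrl in its 3 h response by 0.87 (95% interval 0.42 to 1.32, unadjusted p = 0.000556, adjusted p = 0.598) and Ctrl minus wt was −1.004 (−1.45 to −0.55, unadjusted p = 0.000127, adjusted p = 0.982). Over the alternative settings the adjusted p of SoF minus Ctrl ranged from 0.0718 to 1.00. That of Ctrl minus wt was 0.034 without a low-count filter, the only setting that called it, and 0.0536 to 1.00 under the others. Without the low-count filter, 17 genes in all were called for Ctrl minus wt. Between SoF and wt the SGK1 difference was −0.13 (−0.58 to 0.32, adjusted p = 1.00).

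For SCNN1A the corresponding differences were −0.13 (−1.63 to 1.37) for SoF minus Ctrl, −0.80 (−2.39 to 0.79) for SoF minus wt and −0.67 (−2.49 to 1.15) for Ctrl minus wt, with adjusted p of 1.00, 1.00 and 0.982. These wide intervals rest on the few SCNN1A reads at 0 h. ATP1B1 differed by −0.57 (−1.002 to −0.14, adjusted p = 0.982) for Ctrl minus wt, and NEDD4L by −0.47 (−0.88 to −0.07, adjusted p = 1.00) for SoF minus wt. For SoF minus Ctrl the NEDD4L difference was −0.29 (−0.69 to 0.11). The WNK1 differences were 0.11, 0.13 and 0.01, each with an interval inside −0.37 to 0.51.

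**Figure D4:**
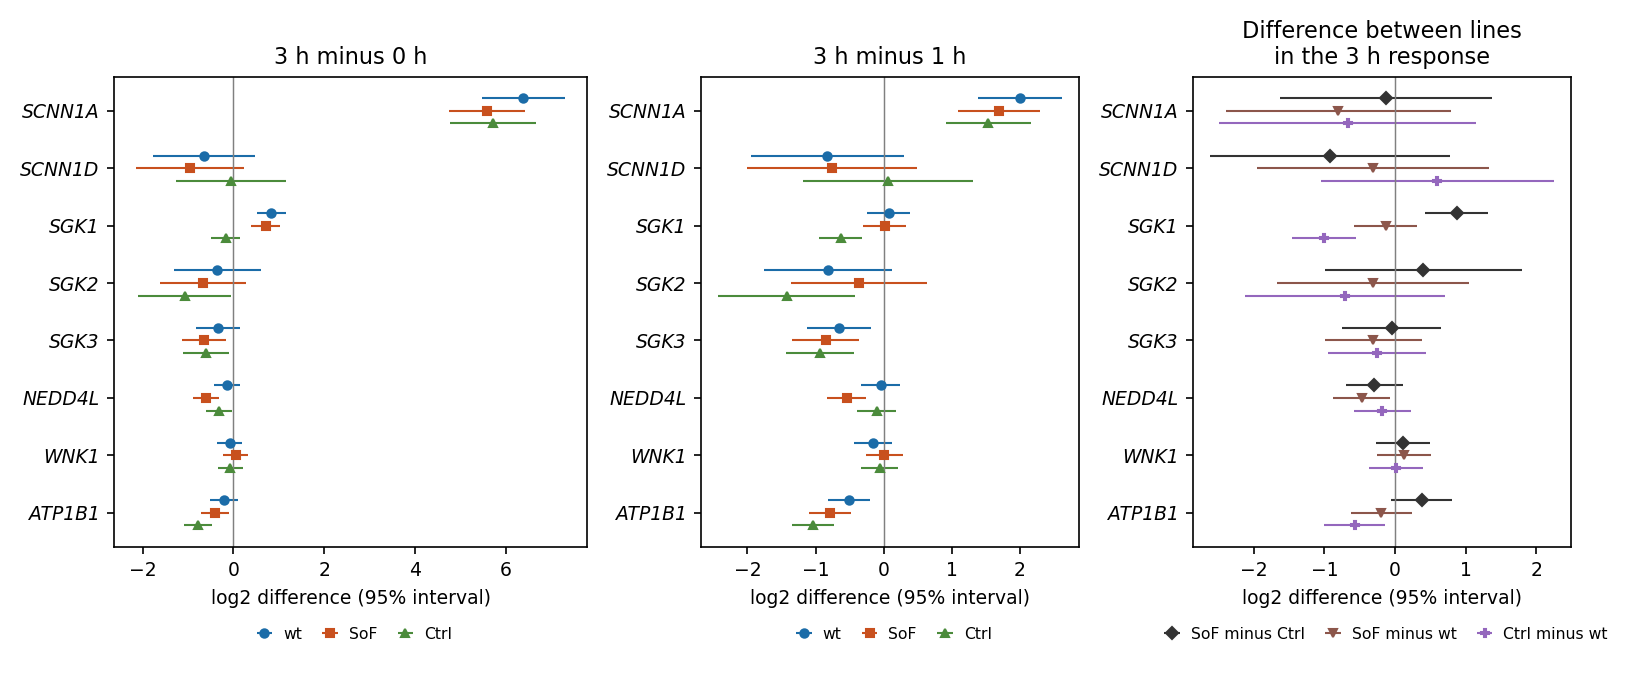
log2 differences with 95% intervals for the 8 tested members, as 3 h minus 0 h in each line (left), 3 h minus 1 h in each line (middle) and how far the 3 h response differed from line to line (right). SCNN1A stands at 5.59 to 6.39 on the left with overlapping intervals, and on the right the SGK1 intervals for SoF minus Ctrl (0.42 to 1.32) and Ctrl minus wt (−1.45 to −0.55) do not reach 0 although neither passed the adjusted test.

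The lines were also compared with time ignored, 8 libraries against 8, in a separate fit of 21122 genes. Since time was left out, changes over time added to the spread in that fit. A missing call there does not show that the lines were alike. No member was called, beside 3.61% of genes for SoF minus Ctrl, 8.02% for SoF minus wt and 4.77% for Ctrl minus wt. At an unadjusted p below 0.05, 3019, 5308 and 3988 genes were found, and DESeq2 called 1064, 2388 and 1477 genes but no member. SGK1 averaged 398 ± 95.6 CPM (SD, n = 8) in wt, 412 ± 81.8 in SoF and 298.5 ± 60.7 in Ctrl, with log2 differences of 0.47 (adjusted p = 0.107) for SoF minus Ctrl, 0.06 (adjusted p = 0.856) for SoF minus wt and −0.41 (adjusted p = 0.134) for Ctrl minus wt in edgeR. NEDD4L averaged 167 ± 17.4, 196 ± 36.4 and 211 ± 35.0 CPM in wt, SoF and Ctrl, with a Ctrl minus wt difference of 0.34 (edgeR adjusted p = 0.0883). SCNN1A, whose spread within a line is mostly its time course, differed by 0.67 (−0.998 to 2.33), 0.44 (−1.21 to 2.09) and −0.23 (−1.89 to 1.44) in the same order as SGK1. With time as an additive term, the share of all tested genes called was not counted, so nothing is read from the number of members. In that fit 7 member differences were called. They were SCNN1A in SoF against Ctrl (0.65) and against wt (0.48), SGK1 in SoF against Ctrl (0.45) and in Ctrl against wt (−0.38), NEDD4L in SoF against wt (0.22) and in Ctrl against wt (0.32), and ATP1B1 in Ctrl against wt (−0.35).

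Other genes of the pathway were taken from lists of 62 genes, of which 48 were tested. At 3 h against 0 h, 6 rose and 2 fell in wt (16.7% called, beside 10.7% of all tested genes), 9 rose and 2 fell in SoF (22.9% beside 19.3%) and 4 rose and 3 fell in Ctrl (14.6% beside 14.2%), and the median log2 difference over the list was 0.08, 0.15 and 0.10 beside −0.03, −0.03 and −0.02 over all tested genes. KLHL3 and NR3C1 changed in the same direction in all 3 lines. KLHL3, the adaptor through which WNK kinases are ubiquitinated, fell by 1.50 ± 0.33 in wt, 1.47 ± 0.34 in SoF and 1.16 ± 0.33 in Ctrl on the log2 scale, from 4.20, 4.20 and 4.73 CPM to 1.48, 1.49 and 2.04 CPM. NR3C1 fell by 0.97 ± 0.21, 1.23 ± 0.21 and 0.97 ± 0.21, although its 1 h means of 1453, 5801 and 6625 CPM lay above those at 0 h. Its reads combine the introduced and the endogenous gene, and their shares in the fall were not tested.

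Among the kinase pathway genes, TSC22D3, a glucocorticoid-induced leucine zipper protein that acts with SGK1 on the channel, was chosen after its values were seen. It averaged 16.9, 48.6, 73.6 and 69.7 CPM at 0, 1, 2 and 3 h in wt, 20.3, 38.0, 56.2 and 103 CPM in SoF, and 21.8, 36.8, 26.9 and 23.3 CPM in Ctrl. In some groups the 2 libraries lay far apart, with an SD of 43.7 CPM in SoF at 3 h, 27.4 CPM in SoF at 2 h and 28.3 CPM in wt at 2 h. The 3 h minus 0 h difference stood at 2.04 ± 0.34 in wt and 2.33 ± 0.34 in SoF, both called, and 0.10 ± 0.34 in Ctrl. As for SGK1, the Ctrl means were highest at 1 h. As a description, the difference in the 3 h response was 2.23 ± 0.48 for SoF minus Ctrl (edgeR adjusted p = 0.386) and −1.94 ± 0.48 for Ctrl minus wt (edgeR adjusted p = 0.982).

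The protease FURIN, which cleaves the channel's alpha and gamma subunits and was also chosen after its values were seen, rose in SoF (0.97 ± 0.22) and Ctrl (0.83 ± 0.22) and differed by 0.66 ± 0.22 in wt without a call. The acid-sensing relatives of the channel, ASIC1 to ASIC4, gave no call at any time. The mineralocorticoid receptor gene NR3C2 differed by −0.13, −0.10 and 0.26 in wt, SoF and Ctrl, with no call.

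The genes whose log2 CPM followed SCNN1A most closely over the 24 libraries, by Pearson's r, were ZBTB16 (0.962), GMPR (0.947), IP6K3 (0.943), ADPRHL1 (0.942) and KLF9 (0.935). Those closest to SGK1 were PDK4 (0.916), SLC19A2 (0.907), SP110 (0.891), SLC46A3 (0.873) and WNT5A (0.862). The 3 h minus 0 h log2 differences of PDK4 were 3.43, 4.15 and 0.11 in wt, SoF and Ctrl, the same order over the lines as for TSC22D3. ZBTB16 differed by 5.82, 6.92 and 5.33. Between SCNN1A and SGK1 themselves r was 0.524, and the members closest to each other were SGK3 and ATP1B1 (0.755). The libraries share their time points and lines, so these values describe likeness of pattern and carry no test.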

How the data were processed

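4sU-labelled RNA of 24 U2OS libraries was analysed. The authors tagged and deduplicated reads with UMI-tools 1.1.2, trimmed them with Trim Galore 0.6.6, aligned them to hg38 with STAR 2.7.3a and deposited raw read counts per gene over exons (featureCounts, GENCODE v39). Biotinylation and pulldown were done in replicate pairs. Symbols and exon lengths came from GENCODE v44 (61369 of 61533 IDs matched). Levels per kb therefore divide reads over v39 exons by v44 exon lengths. Here, counts were tested with edgeR 4.0.16 (quasi-likelihood, TMM, filterByExpr with minimum count 10) in R 4.3.3, over 12 groups of line and time (23651 genes, common biological coefficient of variation 14.2%) and, with time ignored, over 3 lines (21122 genes). In the fit with time ignored that coefficient was 24%. SE is the log2 difference over the square root of F. Named genes were the 10 members, list genes called at 3 h in all lines in 1 direction, and the 5 genes most like SCNN1A and SGK1. TSC22D3, FURIN, ASIC1 to ASIC4, NR3C2, the cell type markers and the genes that overlap members lie outside this rule. The members and lists were chosen with earlier results of these data known. The fit was tested on simulated data. Alternatives were DESeq2 1.42.0, RLE scaling, no filter, a replicate block, fewer lines, a time term, 0 h alone, and leaving out libraries.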

Additional observations from a re-analysis of the deposited data

Results flagged for a closer look

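SGK1 was flagged because its 3 h libraries lay on opposite sides of the 0 h libraries in different lines. Both 3 h libraries lay above both 0 h libraries in wt and in SoF and below them in Ctrl, and the differences in response were 0.873 on the log2 scale for SoF minus Ctrl and −1.004 for Ctrl minus wt. Both differences were tested in edgeR and did not pass, with adjusted p = 0.598 and 0.982. In Ctrl the 3 h minus 0 h difference itself was −0.17 (95% interval −0.48 to 0.15) and was not called, so no fall from 0 h is read from it.

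WNK1 met the same criterion for SoF minus Ctrl, with a difference in response of 0.114 on the log2 scale, from 3 h libraries just above the 0 h libraries in SoF and just below them in Ctrl. It did not pass the test either (edgeR adjusted p = 1.00).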

How the results depend on the processing

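Over the 9 comparisons with 0 h, 16 member calls were made, and 15 to 18 under the other tools, scalings, filters and fits. For 3 h against 1 h, 11 were made, and 9 to 12 under those alternatives. Without 1 library the counts were 14 to 17 and 8 to 11, 0 for the response differences, and 0 between lines without replicate 1 or 2. With no low-count filter 1 response difference was called, SGK1 in Ctrl minus wt, among 17 genes called in that contrast. With an additive time term 7 line differences were called. Calls over all genes were not counted for most alternatives, so these member counts are a description only. The cause of the differences in calls was not tested.

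Whether the replicate numbers pair the samples was not settled, since the pulldown was done in replicate pairs whose make-up across groups is not stated. Over 66 pairs of groups the correlation of same-numbered deviations ran from −0.221 to 0.568, with 21 over 0.1 and the others not, and among the 0 h groups all were over 0.1, from 0.394 to 0.568. With the replicate block the counts of calls were 18, 12, 0 and 0.

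At 0 h alone, the Ctrl minus wt difference turned positive for SCNN1A (0.297) and SGK1 (0.148). Leaving out single libraries also turned the sign of small uncalled differences. These ranged from −0.436 to 0.0025 for ATP1B1 in wt at 3 h, from −0.0752 to 0.264 and from −0.0573 to 0.118 for SGK1 at 3 h against 1 h in wt and SoF, from −0.456 to 0.207 for the SCNN1A response in SoF minus Ctrl, from −0.376 to 0.0961 for the SGK1 response in SoF minus wt, and from −0.111 to 0.229 for SGK1 between the SoF and wt lines. Depth limits SCNN1B, SCNN1G, SCNN1D and SGK2 at all times and SCNN1A at 0 h.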
